A study of Homo sapiens with 12 samples.

Results

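The 32 genes described here encode the enzymes that make cholesterol and fatty acids and the proteins that control them, out of 19305 RefSeq coding sequences counted in each library. They were taken from a list of known targets and regulators of the sterol regulatory element binding proteins (SREBPs) and found in the files by RefSeq accession; each matched 1 accession. By role they are 7 enzymes of the mevalonate pathway, 11 enzymes from squalene to cholesterol, 5 regulators, the sterol carrier STARD4 and 8 enzymes of fatty acid synthesis. The sterol arm below means the first 18 genes and the fatty acid arm the last 8.

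The study counted ribosome-protected fragments, or footprints, which are the pieces of mRNA that a translating ribosome shields from nuclease. HEK293T, a line of human embryonic kidney cells, carried either eIF2A siRNA or control siRNA; all 8 of its libraries came from cells given sodium arsenite, a stressor, and from mRNA precipitated (IP) with CBP80, a cap-binding protein of the nucleus, or with eIF4E, the main cap-binding protein of the cytoplasm. H9, a line of human embryonic stem cells, carried eIF2A shRNA or control shRNA, with no IP and no arsenite in its labels. Each of these 6 groups held 1 library of set 1 and 1 of set 2, and eIF2A, the knockdown target, is a protein that can bring initiator tRNA to the ribosome.

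SREBP-1 and SREBP-2, made from SREBF1 and SREBF2, are held in the endoplasmic reticulum by SCAP and the INSIG proteins while sterol is plentiful. When sterol falls, SCAP escorts them to the Golgi, proteases release their DNA-binding part, and this part switches on the genes of both arms, SREBP-2 favouring the sterol arm and SREBP-1 the fatty acid arm. INSIG1 is itself a target, so its expression is known to follow SREBP activity closely.

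Promoters are shown for 4 members: SREBF2, whose product switches on the sterol arm and whose promoter holds the textbook element, and FADS2, DHCR7 and INSIG1, which stand for the fatty acid arm, the sterol arm and the regulators among the genes that fell. Each runs from 250 bases before to 50 bases after the RefSeq start of the gene, in GRCh38.p14. They lie at chr22:41832855-41833154 (plus strand) for SREBF2, chr11:61815953-61816252 (plus) for FADS2, chr11:71448344-71448643 (minus) for DHCR7 and chr7:155297628-155297927 (plus) for INSIG1. Capitals mark a match to a loosened form of the sterol regulatory element, TCACNCNAC, or a CCAAT box, searched as CCAAT, each on both strands. The SREBF2 match also has the stricter form TCACNCCAC, and the FADS2 match does not.
SREBF2: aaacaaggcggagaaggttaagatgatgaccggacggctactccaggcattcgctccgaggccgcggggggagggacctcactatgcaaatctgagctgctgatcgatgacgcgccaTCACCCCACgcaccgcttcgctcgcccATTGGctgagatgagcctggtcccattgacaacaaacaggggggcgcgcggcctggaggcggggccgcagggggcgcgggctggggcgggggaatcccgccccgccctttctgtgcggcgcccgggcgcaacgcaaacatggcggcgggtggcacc
FADS2: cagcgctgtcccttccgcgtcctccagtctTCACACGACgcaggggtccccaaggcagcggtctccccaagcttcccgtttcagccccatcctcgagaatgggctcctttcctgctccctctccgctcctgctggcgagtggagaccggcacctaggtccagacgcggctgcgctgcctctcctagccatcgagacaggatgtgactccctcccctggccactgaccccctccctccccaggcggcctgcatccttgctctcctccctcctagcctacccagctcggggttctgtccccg
DHCR7: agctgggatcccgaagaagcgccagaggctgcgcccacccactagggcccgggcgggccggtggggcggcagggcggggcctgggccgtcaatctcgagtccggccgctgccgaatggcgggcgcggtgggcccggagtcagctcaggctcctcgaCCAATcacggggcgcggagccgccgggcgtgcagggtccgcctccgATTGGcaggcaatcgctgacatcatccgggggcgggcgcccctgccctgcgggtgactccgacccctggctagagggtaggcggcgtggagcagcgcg
INSIG1: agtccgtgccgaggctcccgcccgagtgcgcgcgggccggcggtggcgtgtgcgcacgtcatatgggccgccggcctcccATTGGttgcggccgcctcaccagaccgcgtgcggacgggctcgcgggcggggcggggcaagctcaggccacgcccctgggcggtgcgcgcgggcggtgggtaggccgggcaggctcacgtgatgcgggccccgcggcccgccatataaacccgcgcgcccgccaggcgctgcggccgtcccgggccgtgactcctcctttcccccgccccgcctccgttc

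SREBF2 held the stricter element TCACNCCAC at position -133 from the start, and it was the only one of the 28 members with a promoter in the table to do so, against 1.16% of the 15089 promoters of counted genes. With 1 more free base, TCACNCNAC matched SREBF2, FADS2 (position -220), FDPS and HSD17B7, which is 4 of 28 members, against 2.57% of all promoters. A CCAAT box stood in 18 of 28 members, against 36.5% of all promoters. It stood in 8 of 9 enzymes from squalene to cholesterol, 4 of 6 mevalonate enzymes, 3 of 7 fatty acid enzymes and 2 of 5 regulators. Among the 14 members that fell in the siRNA comparison below, 8 of 11 with a promoter in the table held a CCAAT box, against 10 of 17 of the other members. DHCR7 held one on each strand, at -94 and -48, INSIG1 one at -170 and SREBF2 one at -106. TCACNCCAC stood in 0 of 11 members that fell and 1 of 17 others, and TCACNCNAC in 1 of 11 and 3 of 17. A GC box, searched as GGGCGG, stood in 26 of 28 members, against 59.6% of all promoters. An E-box, searched as CANNTG, stood in 15 of 28, against 64.1%. These are matches of letters within a window, and no binding was measured. ACAT2, FDFT1, SQLE and FASN are named only.

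EIF2A footprints were the check of the labels, and they did not follow them in every pair. In HEK293T libraries labelled eIF2A siRNA, EIF2A had 93.8 and 98.4 CPM (reads per 1e6 coding reads) in set 1 and 45.3 and 48.0 CPM in set 2 (CBP80 label, then eIF4E label), against 82.7 and 83.8 CPM in set 1 and 81.3 and 86.1 CPM in set 2 with control siRNA. The ratio was 1.15 in set 1 (95% counting interval 1.05 to 1.26) and 0.559 in set 2 (0.5 to 0.625). In H9 it had 110.2 and 68.2 CPM with eIF2A shRNA and 103 and 60.9 CPM with control shRNA (sets 1 and 2). EIF2A was thus lower in 1 of 4 pairs, and the groups are called by their labels throughout.

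HEK293T libraries held 4331459 to 5775177 coding reads and H9 libraries 937990 to 1878700. The CBP80-labelled and the eIF4E-labelled file of the same siRNA and set differed by little more than sampling noise over genes. Each such pair was therefore summed and counted as 1 library in the siRNA comparison. Chi-square per degree of freedom was 1.01 to 1.03 within these pairs, against 3.95 to 5.52 between sets. The H9 files of a set, which differ in shRNA label, lay at 1.04 and 1.07, against 2.67 to 3.31 between sets. Uniquely aligned reads outside coding sequence moved with the siRNA label: they made up 51.0 and 51.1% in set 1 and 42.2 and 42.4% in set 2 with eIF2A siRNA, against 39.9 and 40.1% in set 1 and 35.2 and 35.3% in set 2 with control siRNA. Their part in the results below was not tested.

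The first question was whether sterol and fatty acid genes carried fewer or more footprints in HEK293T cells labelled eIF2A siRNA. Of the 32 members, 14 fell and 0 rose (edgeR quasi-likelihood test on the 4 summed libraries, adjusted p under 0.05), while 6.29% of the 12331 genes tested fell and 6.15% rose. The members that fell were 4 of 7 mevalonate enzymes, 5 of 11 enzymes from squalene to cholesterol, INSIG1 among 5 regulators, STARD4, and 3 of 8 fatty acid enzymes. The median log2 difference was -0.33 over the members and 0.0037 over all genes tested, and 27 of 32 members lay below 0. All 32 passed the filter on low counts. A smaller number of footprints per cell and fewer cells carrying them cannot be told apart in such lysates, nor can less mRNA and slower translation, since mRNA was not analysed here.

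The count of 14 rested on the control of set 2 more than on any other library: without it 1 member fell, and 75 genes in all passed. Without the control or the eIF2A-labelled library of set 1 it was 4 in each case, and without the eIF2A-labelled library of set 2 it was 11. Library sizes alone in place of TMM scaling gave 8 members lower and 0 higher, with 294 genes lower and 739 higher in all, where TMM gave 776 lower and 758 higher.

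**Figure D1:**
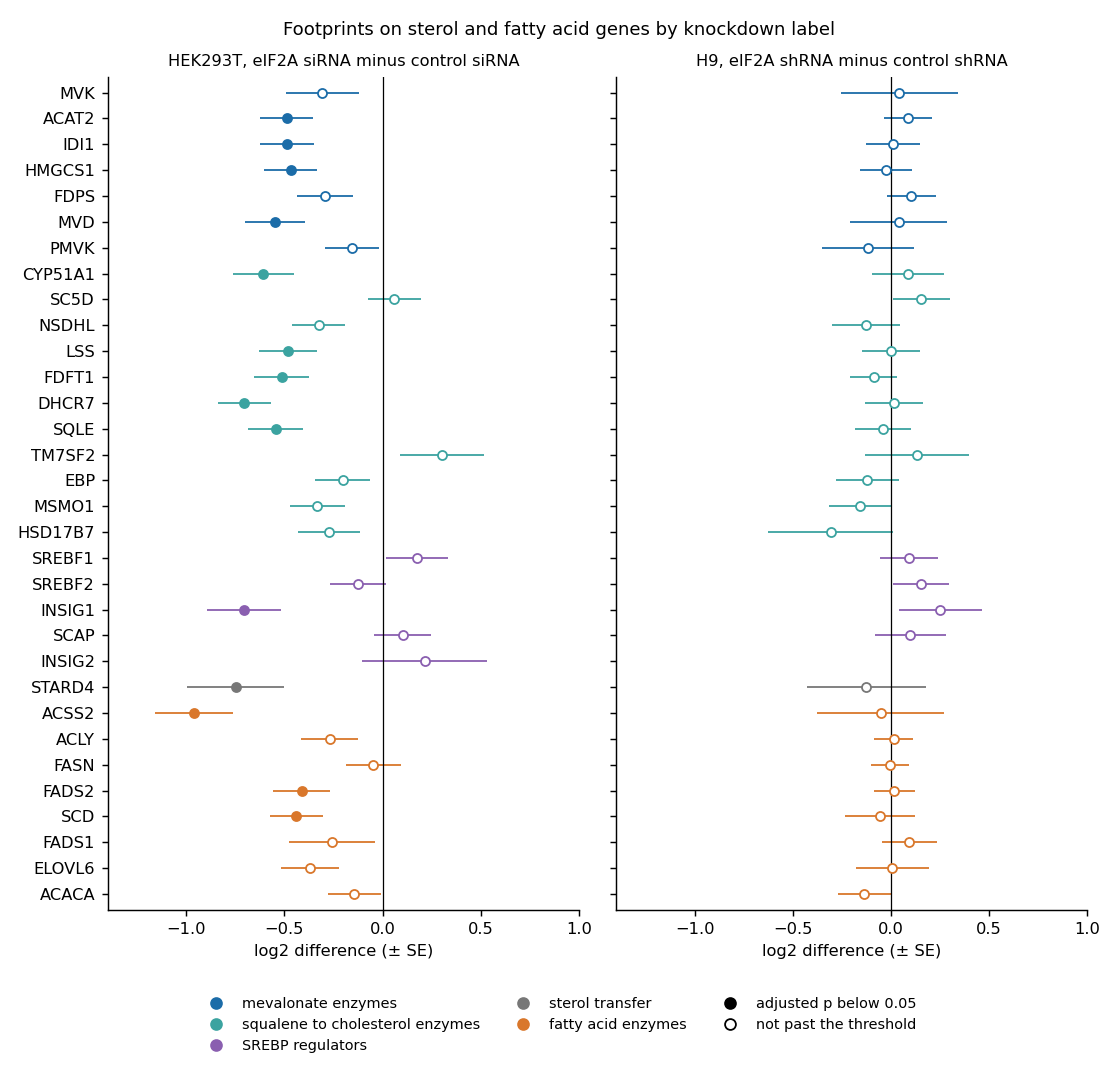
Log2 difference in footprints (± SE) of the 32 members, by role, for eIF2A siRNA minus control siRNA in HEK293T (left, 4 summed libraries) and eIF2A shRNA minus control shRNA in H9 (right, 4 libraries; INSIG2 was not tested). Filled points passed an adjusted p of 0.05: 14 in HEK293T, all below 0, and 0 in H9.

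In the mevalonate pathway, which builds isoprenoid units from acetyl-CoA, ACAT2, HMGCS1, MVD and IDI1 fell. Values of the 4 HEK293T libraries of a label are given in the order CBP80 set 1, CBP80 set 2, eIF4E set 1, eIF4E set 2. HMGCS1, the synthase that makes HMG-CoA, had 189.7, 191, 193 and 197 CPM with eIF2A siRNA and 259.7, 249.8, 246 and 248 CPM with control siRNA. All 4 eIF2A-labelled values lay below all 4 control values, as for 16 of 32 members and 10.8% of all genes tested, and 0 members lay all above, against 19.0% of genes. The 4 values of a label stand for 2 libraries, since the files of a pair differed by little more than sampling noise. The log2 difference was -0.47 ± 0.14 (SE, adjusted p = 0.0135, edgeR). ACAT2, a thiolase that joins acetyl-CoA units, had 126, 129, 118 and 133 CPM against 166, 168, 161 and 176 CPM, with no overlap either (-0.49 ± 0.14, edgeR adjusted p = 0.00994). MVD, which decarboxylates mevalonate diphosphate, had 23.9, 24.6, 27.4 and 27.9 CPM against 29.6, 41, 34.1 and 38.3 CPM. Its difference was -0.55 ± 0.15 (edgeR adjusted p = 0.0107).

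IDI1, the isomerase of isopentenyl diphosphate, had 210.4, 263, 212 and 252 CPM with eIF2A siRNA and 311, 306, 317 and 306 CPM with control siRNA (-0.49 ± 0.14, edgeR adjusted p = 0.0121). Its groups did not overlap, but set 1 was lower than set 2 among eIF2A-labelled files, with ratios to control of 0.673 in set 1 (95% counting interval 0.637 to 0.711) and 0.84 in set 2 (0.798 to 0.885). FDPS, farnesyl diphosphate synthase, showed the same split by set, at 0.767 (0.74 to 0.795) in set 1 and 0.967 (0.933 to 1.002) in set 2, and did not pass (-0.29 ± 0.14). MVK and PMVK, the kinases of the pathway, did not pass either, at -0.31 ± 0.19 and -0.15 ± 0.14. FDPS has 10 named pseudogenes, IDI1 and CYP51A1 3 each, HSD17B7 2 and SCD 1, so reads that align to a copy as well were left out of their counts.

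From squalene to cholesterol, FDFT1, SQLE, LSS, CYP51A1 and DHCR7 fell. FDFT1, squalene synthase, had 182, 213, 205 and 219 CPM with eIF2A siRNA and 245, 311, 241 and 304 CPM with control siRNA (-0.51 ± 0.14, edgeR adjusted p = 0.00824). SQLE, the epoxidase that is a rate-limiting step, had 47.4, 50.5, 49.3 and 51.1 CPM against 72.8, 67.9, 67.1 and 64.4 CPM (-0.54 ± 0.14, edgeR adjusted p = 0.00531). Both genes were lower in every eIF2A-labelled file than in any control file. LSS, which closes squalene epoxide into lanosterol, had 34.3, 27.8, 37.3 and 28.7 CPM against 38.4, 43.5, 45.3 and 39.9 CPM (-0.48 ± 0.15, edgeR adjusted p = 0.0209). Its ranges came within about 1 CPM of each other, through the set 1 files. CYP51A1, the lanosterol demethylase, had 22.1, 21.1, 20.9 and 23.9 CPM against 34.5, 32.5, 30.6 and 28.6 CPM (-0.61 ± 0.16, edgeR adjusted p = 0.00547).

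DHCR7, which makes cholesterol from 7-dehydrocholesterol in the last step, was the enzyme of the sterol arm with the lowest p. It had 67.7, 63.0, 65.5 and 59.4 CPM with eIF2A siRNA and 90.4, 107, 95.8 and 97.9 CPM with control siRNA. The highest eIF2A-labelled value was below the lowest control value by over 20 CPM, and the log2 difference was -0.71 ± 0.14 (edgeR adjusted p = 0.000206). Its ratio to control was 0.716 in set 1 (95% counting interval 0.648 to 0.79) and 0.595 in set 2 (0.539 to 0.657). The other 6 enzymes of the segment did not pass, and they ran from -0.33 ± 0.14 for MSMO1 and -0.33 ± 0.13 for NSDHL, which remove the C4 methyl groups, through HSD17B7 at -0.27 ± 0.16 and the isomerase EBP at -0.20 ± 0.14, to the desaturase SC5D at 0.06 ± 0.13 and the reductase TM7SF2 at 0.30 ± 0.21. SC5D was above control in set 2, at 1.19 (1.10 to 1.29), and TM7SF2 in set 1, at 1.44 (1.07 to 1.93).

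Among the regulators, INSIG1 fell and the 4 others did not pass. INSIG1 had 12.6, 8.58, 10.5 and 9.0 CPM with eIF2A siRNA and 17.1, 16.1, 16.3 and 12.5 CPM with control siRNA, a difference of -0.71 ± 0.19 (edgeR adjusted p = 0.00686). The groups overlapped only at the CBP80 file of set 1 and the eIF4E control of set 2, and the ratio was 0.696 (95% counting interval 0.546 to 0.882) in set 1 and 0.61 (0.466 to 0.796) in set 2. INSIG2, which is not a strong SREBP target, was near the detection limit at 3.36, 2.80, 4.21 and 2.77 CPM against 2.29, 3.29, 2.64 and 2.31 CPM (0.21 ± 0.32).

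SREBF1 had 39.5, 26.1, 37.5 and 24.4 CPM with eIF2A siRNA and 28.3, 21.9, 28.1 and 27.7 CPM with control siRNA (0.17 ± 0.16, edgeR adjusted p = 0.515). SCAP had 61.2, 47.2, 64.2 and 45.2 CPM against 47.9, 43.7, 48.1 and 50.8 CPM (0.10 ± 0.14, edgeR adjusted p = 0.695). For both genes the set 1 files labelled eIF2A siRNA stood above every control file and the set 2 files did not: the set 1 ratio was 1.36 (95% counting interval 1.17 to 1.59) for SREBF1 and 1.31 (1.16 to 1.47) for SCAP, and the set 2 ratio 1.03 (0.862 to 1.23) and 0.983 (0.864 to 1.12). SREBF2 had 49.9, 46.6, 57.9 and 41.4 CPM against 51.7, 53.2, 48.8 and 45.2 CPM, with overlapping groups (-0.12 ± 0.14, edgeR adjusted p = 0.618). STARD4, which carries sterol between membranes, had 5.13, 3.36, 3.37 and 4.33 CPM against 5.10, 5.61, 7.20 and 8.08 CPM. Its log2 difference was -0.75 ± 0.25 (edgeR adjusted p = 0.0328), it rests on few reads, and its groups overlapped only at the CBP80 files of set 1.

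In the fatty acid arm, ACSS2, SCD and FADS2 fell. ACSS2, which makes acetyl-CoA from acetate, had 8.49, 9.14, 4.42 and 8.48 CPM with eIF2A siRNA and 13.5, 12.8, 15.5 and 15.0 CPM with control siRNA. Its groups did not overlap, and the log2 difference of -0.96 ± 0.20 (edgeR adjusted p = 0.000576) was the lowest of the 32 members. Within eIF2A-labelled set 1 its CBP80 file stood above the eIF4E file, with a ratio of 1.92 (95% counting interval 1.11 to 3.4), the only member above 1 in that pair (1 of 32, against 2.2% of all genes), and in set 2 the ratio was 1.077 (0.71 to 1.63). SCD, which puts the first double bond into saturated fatty acids, had 134, 113, 129 and 109 CPM against 158, 153, 165 and 139 CPM (-0.44 ± 0.13, edgeR adjusted p = 0.0203). FADS2, the desaturase that opens polyunsaturated fatty acid synthesis, had 34.3, 29.6, 33.5 and 33.4 CPM against 43.6, 37.9, 42.3 and 40.4 CPM. Its adjusted p was close to the threshold (-0.41 ± 0.15, edgeR adjusted p = 0.0488).

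The enzymes that build the chain did not pass. FASN, fatty acid synthase, went opposite ways in the sets: its ratio of eIF2A to control siRNA was 1.14 (95% counting interval 1.09 to 1.18) in set 1 and 0.922 (0.883 to 0.963) in set 2, and the log2 difference over both was -0.05 ± 0.14. ACACA, acetyl-CoA carboxylase, lay at -0.14 ± 0.13. ACLY, which supplies acetyl-CoA from citrate, lay at -0.27 ± 0.15, and its ratios were alike in both sets, at 0.894 (0.872 to 0.917) and 0.868 (0.846 to 0.891). The elongase ELOVL6 lay at -0.37 ± 0.15 and the desaturase FADS1 at -0.26 ± 0.22.

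**Figure D2:**
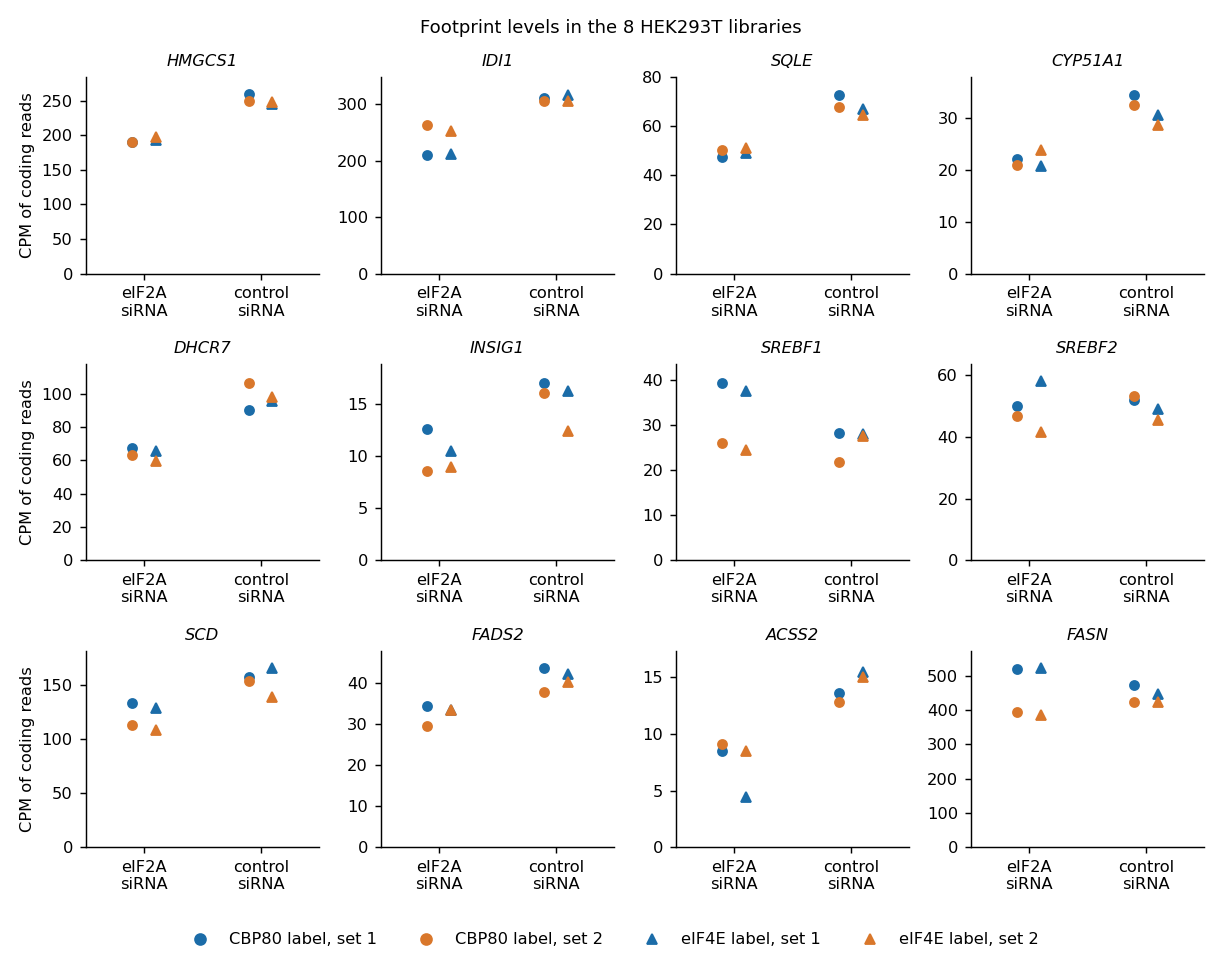
Footprint levels (CPM of coding reads) of 12 members in each of the 8 HEK293T libraries, eIF2A siRNA left and control siRNA right; colour gives the set and shape the IP label. For HMGCS1, SQLE, CYP51A1 and DHCR7 the eIF2A-labelled points lie below all control points, while for SREBF1 and FASN the set 1 points lie above and the set 2 points among or below the controls.

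Read within each set, with no model, the ratio of eIF2A to control siRNA had a 95% counting interval below 1 in both sets for 18 of 32 members and above 1 in both for 0. Over all genes tested, 9.7% were below in both sets and 18.8% above in both. In set 1 alone, 20 members were below and 4 above (15.0 and 32.3% of all genes), and in set 2, 22 were below and 1 above (17.9 and 26.2%). The 18 were ACAT2, HMGCS1, MVD, IDI1, FDFT1, SQLE, LSS, CYP51A1, MSMO1, NSDHL, EBP, DHCR7, INSIG1, SCD, ACLY, FADS2, ELOVL6 and ACSS2. These ratios use the total of coding reads, on which the median gene had a log2 ratio of 0.13 in set 1 and 0.06 in set 2. The 18 were picked for lying below 1 in both sets, so their fall in each set follows from the choice. EIF2A itself was lower in set 2 and not in set 1.

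**Figure D3:**
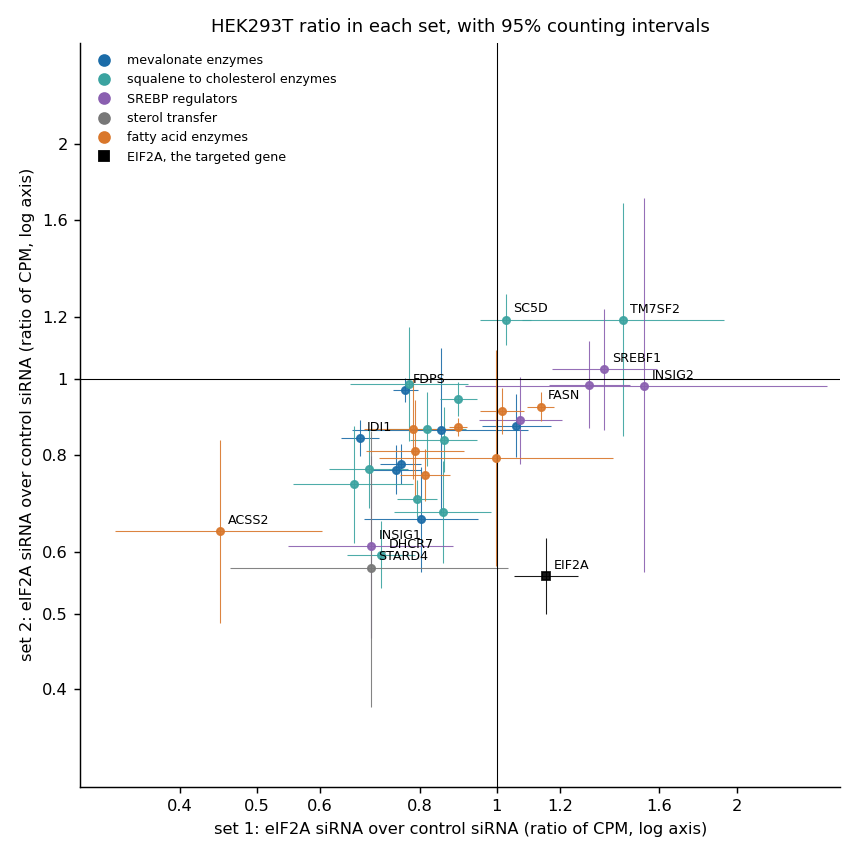
Ratio of footprint CPM, eIF2A siRNA over control siRNA, in HEK293T set 1 (x, log axis) and set 2 (y, log axis) for the 32 members and EIF2A, with 95% counting intervals. Most sterol and fatty acid enzymes lie in the lower left, below 1 on both axes; SREBF1 and FASN lie above 1 in set 1, and EIF2A is at 1.15 in set 1 and 0.559 in set 2.

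The arms were compared through their summed CPM. In HEK293T labelled eIF2A siRNA the sterol arm summed to 2054.7 CPM in set 1 and 2282.9 CPM in set 2, against 2584.8 and 2663.4 CPM with control siRNA. The fatty acid arm summed to 2005.7 and 1783.9 CPM, against 2126.0 and 2046.9 CPM. Both sums were lower with eIF2A siRNA in both sets, though without ACLY, its most abundant member, the fatty acid arm had log2 ratios of 0.01 in set 1 and -0.19 in set 2. The log2 ratio was -0.28 ± 0.08 for the sterol arm and -0.14 ± 0.08 for the fatty acid arm (SD, n = 2 sets). The difference between them, sterol minus fatty acid, was -0.25 in set 1 and -0.02 in set 2, a mean of -0.14 ± 0.16 (SD, n = 2 sets), which did not exceed the spread between sets. Without FDPS and ACLY, the most abundant member of each arm, it was -0.33 in set 1 and -0.09 in set 2, a mean of -0.21 ± 0.17. A spread of 2 values cannot decide whether the arms differ. No test was run on 2 sets.

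By IP label, 6 members fell with eIF2A siRNA among CBP80-labelled files and 0 rose (2.47% of 11778 genes fell and 1.55% rose), in a fit of all 8 files that treats each as a sample. They were ACAT2, HMGCS1, CYP51A1, SQLE, MSMO1 and DHCR7, all of the sterol arm. Among eIF4E-labelled files 3 fell, ACAT2, DHCR7 and ACSS2, and 0 rose (2.0% of genes fell and 1.24% rose). These counts moved with single files, from 0 to 11 and from 0 to 8, and were 0 without the control of set 2 or the eIF2A-labelled file of set 1 of the same IP label, and for eIF4E also without the control of set 1. The difference between the labels was tested itself. With edgeR, 0 of 32 members and 0 of 11778 genes passed (0.0% called, 96 at an unadjusted p under 0.05, and 0 with DESeq2). That fit had no block. Blocking on each siRNA and set, 0 genes passed with edgeR and 530 had an unadjusted p under 0.05.

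CBP80 against eIF4E, over both siRNAs, gave 0 of 32 members and 0 of 11778 genes with edgeR (99 at an unadjusted p under 0.05, and 1 gene with DESeq2). The members' log2 differences ran from -0.20 for STARD4 to 0.16, with a median of 0.0054 and one of -0.0008 over all genes. The 95% interval was -0.15 to 0.15 for HMGCS1, from this fit without a block, whose spread holds the difference between sets. MSMO1 had ratios of CBP80 to eIF4E label of 0.937 (95% counting interval 0.787 to 1.12) in set 1 and 0.872 (0.746 to 1.02) in set 2 with eIF2A siRNA, against 1.19 (1.03 to 1.38) and 1.18 (1.01 to 1.39) with control siRNA, and its difference over both siRNAs was 0.05 ± 0.10. In the control pairs 3 and 2 of 32 members were above 1, against 2.08 and 2.39% of all genes. With each siRNA and set as a block, 6 genes and 0 members passed, and 588 genes had an unadjusted p under 0.05 (edgeR). The files do not show whether the CBP80 and eIF4E files of a pair are separate precipitates or 1 library under both labels. Were they 1 library, neither comparison of the labels would measure the IP.

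In H9 the second question was whether eIF2A shRNA went with the same change. With edgeR, 0 of 31 members tested and 0 of 9751 genes passed (0.0% called, 84 genes at an unadjusted p under 0.05, and 0 with DESeq2). This compares labels only, because neither H9 pair had fewer EIF2A footprints under the eIF2A shRNA label (ratios 1.066 and 1.121). Its 2 files per set also differed little beyond sampling noise (chi-square per degree of freedom 1.04 and 1.07). The response of these genes to less eIF2A in H9 was thus not tested. INSIG2, at 3.19 and 3.20 CPM with eIF2A shRNA and 3.80 and 3.97 CPM with control shRNA, did not pass the filter on low counts. The members' median log2 difference was 0.01, and they ran from -0.31 ± 0.32 for HSD17B7 to 0.25 ± 0.21 for INSIG1.

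DHCR7 had 329 and 294 CPM with eIF2A shRNA and 348 and 271 CPM with control shRNA (sets 1 and 2). Its log2 difference of 0.01 had a 95% interval of -0.27 to 0.30. INSIG1 had 51.1 and 41.6 CPM against 40.6 and 38.4 CPM, with an interval of -0.16 to 0.67. HMGCS1 had 570.1 and 499 CPM against 597 and 492 CPM, with an interval of -0.28 to 0.24. For DHCR7 and HMGCS1 the sets differed more than the shRNA labels did, while INSIG1 was higher with eIF2A shRNA in both sets. ACSS2 went opposite ways in the sets, with 42.0 and 21.3 CPM against 29.2 and 40.4 CPM, and its 95% interval of -0.69 to 0.58 overlapped the one of its HEK293T difference, -1.35 to -0.57.

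SREBF1 had 156 and 179 CPM with eIF2A shRNA and 152 and 161 CPM with control shRNA. SREBF2 had 215 and 188 CPM against 194 and 169 CPM, and SCAP 78.8 and 85.3 CPM against 71.0 and 81.4 CPM. These 3 regulators were higher with eIF2A shRNA in each set, with log2 differences over both sets of 0.09 to 0.15. None passed, and their 95% counting intervals included 1 in each set. Of the other regulators, INSIG1 was also higher in both sets and INSIG2, on few reads, lower in both. By counting intervals within a set, 2 of 31 members were above 1 in set 1 and 3 below 1 in set 2, where 2.13% and 2.25% of all genes were.

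The difference between the cell lines was tested as an interaction, shRNA in H9 minus siRNA in HEK293T, which was not among the planned comparisons and was chosen with the results in view. No member passed (edgeR, 0 of 32, and 0 of 12911 genes, with 1059 genes at an unadjusted p under 0.05 and 0 with DESeq2). The values lay above 0 for 26 of 32 members, with a median of 0.36 against -0.0098 over all genes. INSIG1 had the highest, 0.95 ± 0.30 (edgeR adjusted p = 0.427), then ACSS2 at 0.91 ± 0.36 and DHCR7 at 0.71 ± 0.21. With the set number as a block, 11 members, all above 0, and 571 genes (352 higher, 219 lower) passed, among them these 3 members, so whether the lines differ depends on that choice. H9 files resembled their set more than their shRNA label, as the chi-square values above show, and H9 libraries are also shallower. Since EIF2A was not lower in H9, the interaction compares labels and not responses to a shown loss of eIF2A.

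The last question was how the levels stood between the lines. In H9 control libraries 23 members were higher than in HEK293T control libraries and 4 lower (edgeR, adjusted p under 0.05), where 34.5% of the 12307 genes tested were higher and 37.3% lower. The median was 1.07 on the log2 scale over members and -0.07 over all genes tested, and with library sizes alone these were 1.23 and 0.09. All of the fatty acid arm except ACLY was higher (7 of 8), as were 11 of 18 of the sterol arm, 4 of 5 regulators and STARD4. Cell line, arsenite, IP and the kind of knockdown construct differ together here and cannot be told apart.

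FADS2 had 962 and 988 CPM in H9 control libraries and 43.6, 37.9, 42.3 and 40.4 CPM in HEK293T control files, a log2 difference of 4.41 ± 0.16 (edgeR adjusted p = 1.23e-160). FADS1, the partner desaturase of the same pathway, had 153 and 149.6 CPM against 7.57, 8.13, 6.33 and 9.93 CPM (4.10 ± 0.20, edgeR adjusted p = 2.31e-94). The lowest H9 value of each gene was over 10 times the highest HEK293T value. TM7SF2 had 50.1 and 34.4 CPM against 7.57, 6.38, 7.73 and 6.46 CPM (2.42 ± 0.24), and SREBF1 had 152 and 161 CPM against 28.3, 21.9, 28.1 and 27.7 CPM (2.41 ± 0.17). FASN had 2283 and 2228 CPM against 471, 422, 445 and 423 CPM (2.20 ± 0.14). LSS had 200.4 and 187 CPM against 38.4, 43.5, 45.3 and 39.9 CPM (2.05 ± 0.16). These 6 had the largest differences and did not overlap between the lines, which held above HEK293T for 26 of 32 members and 43.0% of all genes and below it for 4 members and 38.1%. SREBF2, INSIG1 and SCAP were higher too, by 1.71 ± 0.16, 1.18 ± 0.22 and 0.52 ± 0.18, though SCAP did not pass in 3 of 4 fits that left out a library.

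The 4 members lower in H9 were EBP, FDPS, IDI1 and PMVK. EBP had 131 and 112 CPM in H9 control libraries and 283, 310.5, 269 and 308 CPM in HEK293T control files (-1.42 ± 0.16, edgeR adjusted p = 7.59e-19). FDPS had 279 and 278 CPM against 655, 602, 656 and 619.6 CPM (-1.34 ± 0.15, edgeR adjusted p = 1.79e-19). IDI1 had 174 and 167 CPM against 311, 306, 317 and 306 CPM (-1.02 ± 0.15), and PMVK had 52.6 and 43.0 CPM against 75.3, 96.9, 74.3 and 96.5 CPM (-1.0 ± 0.19). FDPS, IDI1 and PMVK are mevalonate enzymes between mevalonate phosphate and farnesyl diphosphate, while ACAT2, HMGCS1 and MVK, which act before them, were higher in H9, by 1.33 ± 0.14, 0.96 ± 0.14 and 1.06 ± 0.24. MVD, which acts among the 3 lower ones, was also higher, by 0.51 ± 0.19. ACLY, SC5D, NSDHL, HSD17B7 and INSIG2 did not pass.

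**Figure D4:**
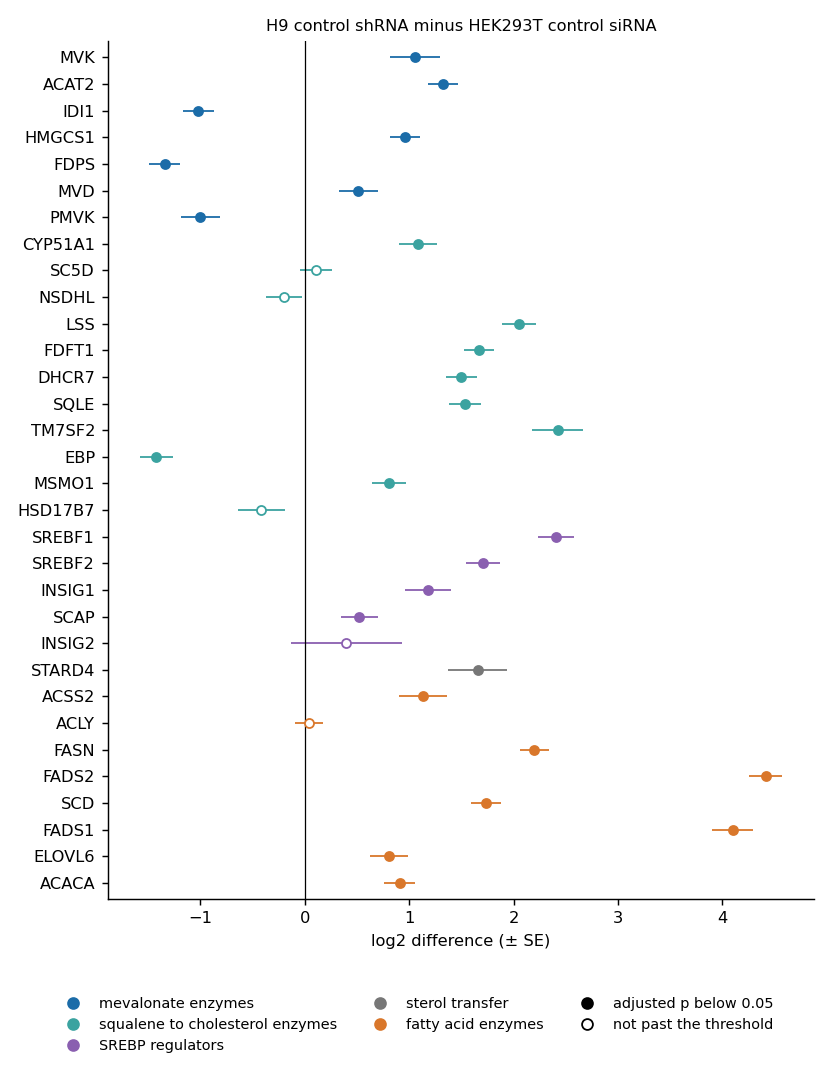
Log2 difference in footprints (± SE) of the 32 members, H9 control shRNA minus HEK293T control siRNA, by role. Filled points passed an adjusted p of 0.05; FADS2 and FADS1 lie beyond 4, and EBP, FDPS, IDI1 and PMVK are the filled points below 0.

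The balance of the arms differed between the lines. In H9 the sterol arm summed to 4159.3 and 3626.9 CPM with eIF2A shRNA and 4141.7 and 3731.6 CPM with control shRNA, and the fatty acid arm to 5841.3 and 5739.9 CPM and to 5895.5 and 5757.3 CPM (sets 1 and 2). The sterol arm was 0.712 and 0.632 times the fatty acid arm with eIF2A shRNA and 0.703 and 0.648 times with control shRNA. In HEK293T it was 1.02 and 1.28 times with eIF2A siRNA and 1.22 and 1.30 times with control siRNA. All 4 H9 libraries lay below 1 and all 4 HEK293T sums above it. These sums weigh long and abundant coding sequences most, FASN and ACLY in the fatty acid arm and FDPS in the HEK293T sterol arm.

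**Figure D5:**
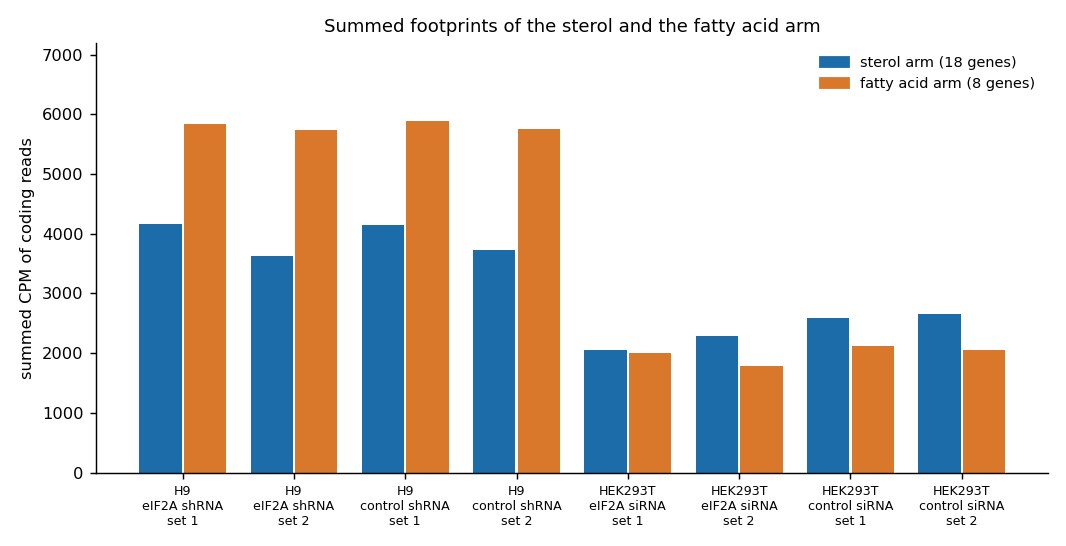
Summed footprint CPM of the sterol arm (18 genes) and the fatty acid arm (8 genes) in each H9 library and each summed HEK293T library. The fatty acid bar is the taller one in all 4 H9 libraries and the sterol bar in all 4 HEK293T libraries, though by little in eIF2A siRNA set 1. In H9 this rests on FASN, the most abundant fatty acid member there.

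The lines were checked against markers. A list of 8 pluripotency genes summed to 4621 to 4932 CPM in H9 and to 41.6 to 54.5 CPM in HEK293T, with POU5F1 listed at 0 in both. A list of 8 kidney and HEK293T genes summed to 14.9 to 20.9 CPM in H9 and 251 to 276 CPM in HEK293T. The HEK293T sum came mostly from NEFM, at 113 to 160 CPM, and the HOX genes, while PAX2, LHX1 and GATA3 had at most 3.23 CPM. Neural genes summed to 84.3 to 92.65 CPM in H9, mostly OTX2, and 24.9 to 28.2 CPM in HEK293T, mostly PAX6. Endoderm genes summed to 3.2 to 10.65 CPM in H9 and 34.9 to 42.95 CPM in HEK293T. Mesoderm genes summed to 0 to 1.32 CPM in H9 and 5.81 to 11.5 CPM in HEK293T. Fibroblast genes also summed higher in H9, at 920 to 1210 CPM, against 19.9 to 27.0 CPM in HEK293T, through THY1, TAGLN, COL1A1 and COL1A2, with LUM and DCN at 0 in H9. In HEK293T this list summed to 20.3 to 27.0 CPM with eIF2A siRNA and 19.9 to 23.8 CPM with control siRNA. Of the 4 fibroblast genes tested for siRNA, TAGLN rose (1.40 ± 0.36) and 3 did not pass, with a median of -0.08. Of 8 kidney and HEK293T genes NEFM fell (-0.46 ± 0.13), and of 2 endoderm genes tested CXCR4 fell (-0.56 ± 0.16). The part of these genes in the differences was not tested.

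Genes next to the pathway were counted for the siRNA comparison in HEK293T from lists chosen by function, where 6.15% of all genes tested rose and 6.29% fell. Of 9 genes that use isoprenoids, 1 rose, FNTA, the alpha subunit of protein farnesyltransferase (0.57 ± 0.18, edgeR adjusted p = 0.0251), and 0 fell. Of 14 genes of sterol handling and SREBP processing, 2 rose and 1 fell. STARD3, a sterol carrier of late endosomes, rose by 0.46 ± 0.16 (edgeR adjusted p = 0.049), and MBTPS1, the site-1 protease that cleaves SREBPs, by 0.39 ± 0.14 (edgeR adjusted p = 0.0466). ERG28, a scaffold of the demethylating enzymes, fell by 0.48 on the log2 scale. Of 18 other fatty acid genes tested, 1 fell, the elongase ELOVL1 (-0.41 ± 0.14, edgeR adjusted p = 0.0352), and 0 rose. The medians of the 3 lists were 0.07, -0.11 and -0.15, against 0.0037 over all genes tested. Counts of 1 in 9 and 1 in 18 are close to the shares over all genes.

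H9 libraries differed between sets in the sterol arm. With both shRNA labels summed, 12 of 31 members had a ratio of set 2 over set 1 with a 95% counting interval below 1, where 14.6% of all genes did, and 1 member, ACACA, was above 1, at 1.15 (1.05 to 1.25), where 12% of all genes were. The median log2 ratio was -0.18 over the 18 genes of the sterol arm and -0.0008 over the 8 of the fatty acid arm, against -0.0261 over all genes tested. MVK was at 0.658 (0.478 to 0.896), TM7SF2 at 0.674 (0.515 to 0.876), DHCR7 at 0.828 (0.753 to 0.911), HMGCS1 at 0.85 (0.79 to 0.913) and SCD at 0.753 (0.702 to 0.809). EIF2A itself was at 0.595 (0.49 to 0.719). There is 1 comparison of 2 sets, so this is a description with no test.

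In HEK293T labelled eIF2A siRNA, all 5 regulators were lower in set 2 than in set 1, as were 7961 of the 12331 genes tested. The regulators had a median log2 ratio of -0.44, against -0.10 over all genes tested. SREBF1 was at 0.655 (95% counting interval 0.559 to 0.766), SCAP at 0.736 (0.654 to 0.829) and SREBF2 at 0.816 (0.72 to 0.924). The intervals of INSIG1, at 0.757 (0.572 to 1.001), and INSIG2, at 0.738 (0.443 to 1.22), included 1. The 7 mevalonate enzymes were all above 1 on the same ratio, with a median log2 ratio of 0.11, against 0.07 in control libraries, where 4 of 7 were above 1. With eIF2A siRNA only IDI1 (1.15 to 1.29) and FDPS (1.13 to 1.22) among them had a 95% counting interval above 1. EIF2A was at 0.486 (0.436 to 0.542). In control libraries the median of the regulators was -0.03.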

How the data were processed

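Footprints were deposited as raw counts, in whole numbers, with 1 RefSeq accession a row and only reads in coding sequence counted to it. The labels' protocols name TRIzol for the RNA and a TruSeq small RNA kit for the libraries. The submitters' processing notes name cutadapt, STAR 2.5.2b and hg19. The counter, strand setting and annotation were not given in the sources used here. Rows naming no gene, mostly reads aligned to several places, held 87.5 to 89.5% of counts in HEK293T and 96.2 to 96.5% in H9 and stayed out of library sizes and tests. RefSeq's table named 18888 of 19305 accessions.

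Groups and set numbers came from titles. Nothing in the labels says that libraries came from separate cultures, so a p-value here reflects spread that may be technical. Counts were tested with edgeR 4.0.16 in R 4.3.3 (filterByExpr, TMM, robust glmQLFit, glmQLFTest, Benjamini-Hochberg adjustment over all genes, threshold 0.05), after a check on simulated counts. The SE is the size of the log2 difference over the root of F. The 95% intervals of log2 differences are built from this SE by the normal distribution. This makes them somewhat narrower than the test itself would where it has few degrees of freedom. In H9 the SE also holds the difference between sets, which widens them. With edgeR, 84 of 9751 genes there had an unadjusted p under 0.05 without a block and 493 with the set as a block. CPM is a gene's count times 1e6 over the library's coding reads. Ratios within a set carry exact 95% intervals that cover counting error only. A gene at 0 could have up to 3 counts, or 0.519 to 3.2 CPM by library. Same-numbered sets were not taken to pair the siRNA or shRNA groups in the main fits: there are 2 pairs, with correlations of deviations of 0.22 to 0.24. In H9, though, files of a set were far more alike than files of different sets (chi-square per degree of freedom 1.04 and 1.07, against 2.67 to 3.31). Fits of H9 without a block thus carry the difference between sets, and those with the set as a block are given beside them. The 4 pairs of IP labels correlated at 0.35 and 0.45, which pairs them; the fits of the IP label had no block, and those with each siRNA and set as a block are given beside them.

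Values of every library are given for members that passed the siRNA test, for the 5 regulators, and for up to 6 members each way between the lines; other members are given by value or range. Alternatives were DESeq2 1.42.0, RLE scaling, library sizes alone, other count filters (none, or a mean of 50 and more), the set as a block, each library left out, and eIF2A-labelled libraries in place of controls. Promoters are RefSeq's for GRCh38.p14, and no coordinates of the files were used. The members and lists were chosen with earlier results of these data known. The study's mRNA-seq and ACSL1 were not analysed here. A gene of the sterol handling list is not reported here and was left out of its counts.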

Additional observations from a re-analysis of the deposited data

How the results depend on the processing

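Of the 14 members called lower in HEK293T, none changed sign under any alternative; over 140 refits, 90 kept their call and 50 lost it. The count of 14 was 8 with library sizes alone, 9 with DESeq2, and 1 to 11 with a library left out. With a library left out, the one left in its group was assumed to vary like the other group. FADS2 and STARD4 lost their call whichever library was left out, and DHCR7 and ACSS2 without 1 of the 4. For CBP80-labelled files, 6 calls became 12 with no count filter, 20 with the set number as a replicate block, 10 with the 4 CBP80-labelled files alone, and 0 to 11 with a file left out. For eIF4E-labelled files, 3 calls became 9 with no count filter, 5 with DESeq2, 18 with the set number as a replicate block, 9 with the 4 eIF4E-labelled files alone, and 0 to 8 with a file left out. With each library counted once the block gave 18 members and 2990 genes in place of 14 and 1534. With each siRNA and set as a block, added after the data were seen for siRNA by IP label, 0 members passed for either comparison of the labels; with the set number it gave 0 for siRNA by IP label and 0 for shRNA in H9, and 27 between the lines, as without it. For shRNA in H9 against siRNA in HEK293T it gave 11 members and 571 genes, all 11 members above 0, in place of 0 and 0. Between the lines, 25 to 28 members passed with a library left out, and 27 with eIF2A-labelled libraries in place of controls (23 higher, 4 lower). The sterol arm's log2 ratio was -0.37 and the fatty acid arm's -0.23 on TMM-scaled sizes, and their difference was -0.21 ± 0.17 (SD, n = 2 sets) without FDPS and ACLY. Depth limits H9 most: INSIG2 had under 4 CPM there, and 3 counts stand for up to 3.2 CPM.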
